A study of Homo sapiens with 44 samples.

Results

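This is the comparison of ARN-509 with vehicle in castration-resistant VCaP tumors, described across all expressed genes. It takes in 30 of the 44 RNA libraries of the series, the 15 whose count columns end in ARN and the 15 whose columns end in VEH. ARN-509 (apalutamide) is an antiandrogen, a drug that blocks the action of testosterone and its derivatives on cells. VCaP is an established human prostate cancer line with a TMPRSS2-ERG fusion. Cells of passage 61 were grown as xenografts in athymic nude mice (HSD:Athymic Nude-Foxn1nu), which lack T cells. All mice were castrated, and dosing began once the serum PSA of the castrated animals had regained its level from before castration, so the vehicle tumors too had regrown without testes. The treated arm was dosed orally with ARN-509, 20 mg/kg/day, over 4 weeks, and the vehicle arm received the carrier alone for the same time. The other 14 libraries are from an arm given enzalutamide, a related antiandrogen, at the same dose and for the same time. Mice were assigned to arms so as to balance serum PSA and its change, body weight, cage and week of castration, whose values per mouse are not analysed here. All tumors derive from 1 cell line, and the labels do not number the mice, so p-values measure the spread between these libraries.

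Androgens act on prostate epithelium by changing transcription. They switch on secretory genes such as the kallikreins and genes of lipid, protein and nucleotide synthesis, in part through DNA elements with the consensus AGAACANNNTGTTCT, and they repress a smaller set of genes. Tumors that regrow after castration usually still depend on this pathway, and antiandrogens are given to block what remains of it.

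Of 23368 gene symbols in the table, 13170 had enough counts to test and 3657 passed the threshold, an adjusted p under 0.05 in edgeR's quasi-likelihood test, which is 27.8% of those tested. Under ARN-509, 1674 genes rose (12.7%) and 1983 fell (15.1%). Scaling by library totals alone gave 2348 rises and 1282 falls, and moved the median log2 change of all genes from -0.005 to 0.05. Most changes were small: 1642 of the called genes differed by under 1.25-fold and 1399 by 1.25 to 1.5-fold. At least 2-fold changes were found for 78 genes that rose and 93 that fell. Those 171 genes carry most of what follows. In bulk tumor RNA, fewer cells of a type and less RNA per cell cannot be told apart.

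Before the values, 4 promoters are shown, in which an inexact match to the consensus androgen response element can be read beside the direction of change. KLK3, which encodes PSA, is shown as the reference androgen-driven promoter. The other 3 belong to the only genes with at least a 2-fold change whose promoter window held a match to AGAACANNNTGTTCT with up to 2 mismatches in its 12 fixed letters, on either strand. PIGR encodes the receptor that carries polymeric immunoglobulins across epithelia, FAM115C (TCAF2 in RefSeq) a protein that binds the TRPM8 channel, and TMEM229B a membrane protein. The first 250 bases before each annotated start are printed 5′ to 3′ on the gene's strand, from RefSeq on GRCh38.p14, with the best match in capitals.
KLK3: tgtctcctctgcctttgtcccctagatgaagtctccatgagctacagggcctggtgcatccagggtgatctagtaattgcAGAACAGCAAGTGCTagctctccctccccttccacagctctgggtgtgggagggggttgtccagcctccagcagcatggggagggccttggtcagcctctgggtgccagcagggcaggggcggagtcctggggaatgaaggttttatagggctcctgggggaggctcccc
PIGR: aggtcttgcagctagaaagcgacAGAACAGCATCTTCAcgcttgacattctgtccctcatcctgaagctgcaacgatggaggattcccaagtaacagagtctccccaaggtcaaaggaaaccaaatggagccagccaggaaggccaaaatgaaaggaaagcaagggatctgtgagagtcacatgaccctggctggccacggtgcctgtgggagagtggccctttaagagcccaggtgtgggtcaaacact
FAM115C: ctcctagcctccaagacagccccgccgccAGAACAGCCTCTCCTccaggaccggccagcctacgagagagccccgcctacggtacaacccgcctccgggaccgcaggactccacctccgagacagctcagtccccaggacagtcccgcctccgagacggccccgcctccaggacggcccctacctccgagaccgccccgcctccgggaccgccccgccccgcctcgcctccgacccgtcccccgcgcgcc
TMEM229B: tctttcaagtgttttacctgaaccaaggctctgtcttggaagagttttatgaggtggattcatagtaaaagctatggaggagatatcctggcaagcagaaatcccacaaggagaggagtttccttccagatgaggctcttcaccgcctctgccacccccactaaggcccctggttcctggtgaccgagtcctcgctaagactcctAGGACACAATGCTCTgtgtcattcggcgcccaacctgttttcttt
These are chr19:50854665-50854914 (plus strand), chr1:206946467-206946716 (minus), chr7:143620724-143620973 (plus) and chr14:67533851-67534100 (minus). The capitals start 170, 227, 221 and 45 bases before the start, each with 2 mismatches. KLK3, PIGR and FAM115C fell, and TMEM229B rose, so matches to the element stood before genes that moved in opposite directions.

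Over all tested genes with a RefSeq promoter, 10435 of 13170, windows of 300 bases were searched (250 before to 50 after the start). A match to the full element with up to 2 mismatches was rare. Of the windows, 54 (0.517%) held such a match, 3 of them with at most 1 mismatch. The match with up to 2 mismatches was present in 7 of 1310 genes that rose (0.534%) and in 12 of 1632 that fell (0.735%). Among genes with at least 2-fold changes it was present in 1 of 52 that rose and 2 of 72 that fell. The single arm AGAACA, on either strand, stood in 8.85% of all windows, 10.2% of those of genes that rose and 8.39% of those of genes that fell. At 2-fold the shares were 7.69% of genes that rose and 13.9% of genes that fell. These are counts of letters near start sites, and distal elements lie outside the windows.

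Genes that androgen is known to induce mostly fell. Of 43 tested genes of that list 23 fell (53.5%, against 15.1% of all tested genes). The 6 that rose were near the share of all tested genes (14.0%, against 12.7%). The median log2 change of the list was -0.26 against -0.005 over all tested genes. STEAP4, a metalloreductase of the endosome, fell by 3.75, the largest change of the list. TRPM8, a cold-sensing calcium channel of prostate epithelium, was at 101, 481 and 804 CPM (lowest, median and highest tumor; CPM is the gene's count relative to the scaled library total) in vehicle tumors and at 57.0, 104 and 213 CPM under ARN-509, so that 2 vehicle tumors reached into the treated range. PMEPA1, a membrane protein that restrains TGF-beta signaling, went from 751, 1076 and 1339 to 421, 598 and 1044 CPM (-0.76 ± 0.10, adjusted p = 8.71e-07). UAP1, which makes the sugar donor UDP-N-acetylglucosamine, went from 126, 205 and 243 to 107, 120 and 140 CPM (-0.68 ± 0.08, adjusted p = 1.50e-07). For UAP1 too, 2 vehicle tumors lay inside the treated range. HOMER2 (-0.53), the kinase CAMKK2 (-0.49), C1orf116 (-0.49), the transcription factor MAF (-0.74) and ENDOD1 (-1.54) fell too.

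The kallikreins KLK2 and KLK3 fell as well. KLK2, a secreted protease, fell by a log2 value of 0.25 (adjusted p = 0.0151), with medians of 4981 CPM in vehicle tumors and 4158 CPM in treated ones. KLK3 was at 186, 296 and 1044 CPM in vehicle tumors and at 162, 203 and 349 CPM in treated tumors. Its fall of -0.61 ± 0.18 (adjusted p = 0.0125) became -0.38 (adjusted p = 0.0226) without vehicle tumor 8, and -0.38 with an adjusted p of 0.054 once a trend with GC content and transcript length, described further on, was removed. These related genes are similar in sequence and may exchange some reads. TMPRSS2, whose promoter drives ERG in this line, did not pass the test (0.03 ± 0.17).

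Among the 6 androgen-induced genes that rose were STEAP2 (0.68), TSC22D3 (0.52), HPGD (0.50), STEAP1 (0.48) and LIFR (0.43). TSC22D3 codes for a leucine zipper protein that steroid hormones induce, and LIFR for a cytokine receptor. Within the STEAP family, STEAP1 and STEAP2 thus rose while STEAP4 fell. Among 10 tested genes that androgen is known to repress, 5 rose (50%, against 12.7% of all tested genes), NOV, CAMK2N1, OPRK1 and SI among them. Another 2 fell (20%, against 15.1%), HSD17B6 by 0.76 and UGT2B10 by 0.87. HSD17B6, a dehydrogenase that can form active androgen from inactive precursors, was at 23.8, 36.1 and 56.0 CPM in vehicle tumors and 14.4, 23.1 and 29 CPM in treated ones. The UGT2B genes are near-identical in parts, and their counts are uncertain.

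**Figure D1:**
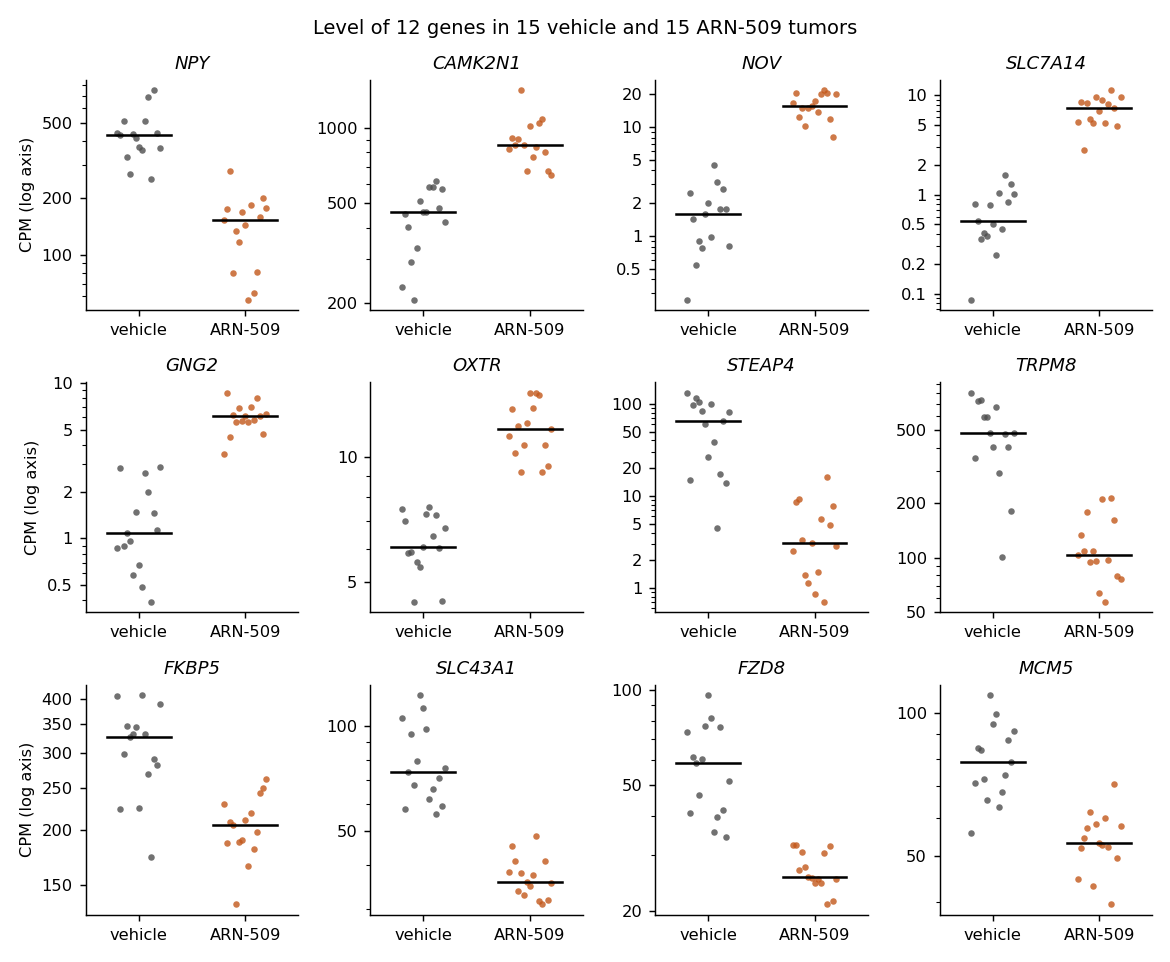
Levels in CPM on log axes of 12 genes in the 15 vehicle (grey) and 15 ARN-509 (orange) tumors, 1 point per tumor, with a bar at each median. NOV, SLC7A14, GNG2, OXTR, CAMK2N1, SLC43A1 and FZD8 do not overlap between the arms, while NPY, STEAP4, TRPM8, FKBP5 and MCM5 do.

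A stricter view counts genes with no overlap between the arms, where every tumor of one arm lies above every tumor of the other. Among 12800 genes whose log2 CPM averaged 1 or more, 14 were higher in all treated tumors (0.109%) and 8 were lower in all of them (0.0625%). NOV (CCN3), a secreted matrix-associated protein and an androgen-repressed gene, was at 0.261, 1.58 and 4.45 CPM in vehicle tumors and at 8.15, 15.7 and 21.7 CPM in treated tumors (3.21 ± 0.23, adjusted p = 5.82e-12). SLC7A14, a lysosomal membrane protein of the amino acid transporter family, was at 0.0872, 0.535 and 1.56 against 2.83, 7.49 and 11.3 CPM (3.38 ± 0.23, adjusted p = 4.62e-12). Both were close to the limit of counting in the lowest vehicle tumors, and the fitted values there depend on the prior count. SAMD11, a transcriptional modulator of photoreceptors, rose by 2.39 ± 0.25 from a vehicle median of 2.51 to 19.5 CPM. GNG2, a G-protein gamma subunit, rose by 2.06 ± 0.21.

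Size and separation were different things. OXTR, the oxytocin receptor, rose by only 0.90 ± 0.09 (adjusted p = 1.67e-08), but its 4.47, 6.07 and 7.59 CPM in vehicle tumors stood wholly below 9.19, 11.7 and 14.3 CPM in treated tumors. CAMK2N1, an inhibitor of the calcium/calmodulin-dependent kinase CaMKII, was at 206, 461 and 613 against 652, 858 and 1417 CPM. RASSF8, a Ras-association protein of cell junctions, was at 3.71, 7.89 and 13 against 15.3, 18.5 and 34 CPM (1.24 ± 0.15). AIDA, an axin-binding protein, was at 12.1, 15.6 and 23.7 against 25.3, 41.1 and 143 CPM, where treated tumor 11 held the 143. ADAMTS17, a secreted metalloprotease, rose by 0.97 ± 0.15, and LOC100130417 rose by 2.28 ± 0.26 next to SAMD11 in the non-overlapping set. CROT, TESK2, GPR137B and RGS17 complete the 14.

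The 8 genes lower in every treated tumor were SLC43A1, RAPGEF3, FZD8, SMPD3, PRKCH, C9orf152, CNDP2 and EMP2. SLC43A1, an amino acid transporter known from prostate tumors, was at 56.1, 73.7 and 122 CPM in vehicle tumors and at 31.0, 35.8 and 48.4 CPM in treated ones (-1.10 ± 0.11, adjusted p = 8.78e-09). RAPGEF3 (EPAC1), a cyclic-AMP-gated exchange factor, was at 5.10, 7.86 and 15.6 against 1.43, 2.82 and 4.2 CPM (-1.56 ± 0.16). FZD8, a Wnt receptor, was at 34.2, 59.0 and 96.5 against 20.9, 25.5 and 32.2 CPM (-1.10 ± 0.13). The sphingomyelinase SMPD3 was at 91.6, 125 and 136 against 40.9, 63.2 and 91.0 CPM, and the kinase PRKCH at 36.0, 49.3 and 59.4 against 22.7, 29.6 and 35.9 CPM. CNDP2, a dipeptidase, and EMP2, a tetraspan membrane protein, each fell by only 0.40 ± 0.05, which still separated all 15 tumors of one arm from all 15 of the other.

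Further genes among the 40 largest rises included BMX (1.83), a TEC-family kinase, and RGS17 (1.51), a brake on G-protein signaling. The ion exchanger gene SLC24A2 (1.55), the channel subunits SCN4B (1.46) and KCNMB2 (1.28) and the water channel AQP3 (1.23) rose as well. BMP2 (1.61), a bone morphogenetic protein, and IGFBP3 (1.35), a binding protein of insulin-like growth factors, were at a few CPM in both arms. The transcriptional regulators EYA2 (1.82), KLF9 (1.32) and BACH2 (1.24) rose. KLF9 was at 3.41, 12.2 and 28.8 CPM in vehicle tumors and 22.7, 31.7 and 52.4 CPM in treated ones, and TRIB1 (1.23), a pseudokinase, from a median of 194 to 498 CPM. VWA5B1 had a wide spread in the vehicle arm, 16.5, 67.5 and 256 CPM against 132, 209 and 370 CPM (1.55 ± 0.26).

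Further genes among the 40 largest falls are given here. NPY, the neuropeptide Y gene, was at 254, 431 and 749 CPM in vehicle tumors and at 57.7, 154 and 278 CPM in treated tumors (-1.60 ± 0.18, adjusted p = 1.54e-07), so that 2 vehicle tumors lay inside the treated range. GHR, the growth hormone receptor, was at 2.89, 11.1 and 22.3 against 0.872, 2.74 and 4.57 CPM (-1.98 ± 0.21). HLA-DMB, which loads peptides onto MHC class II, was at 35.5, 109 and 179 against 13.7, 29.1 and 41.2 CPM (-1.87 ± 0.20). PKP1, a desmosomal plaque protein, fell by 1.67, MCC, a colorectal tumor suppressor, by 1.62, and ARHGEF26, an exchange factor of small GTPases, by 1.60. The thromboxane synthase TBXAS1 was at -1.61, the peroxidase GPX3 at -1.56, ALDH1A1 at -1.47 and NNMT at -1.38. SLPI (-1.96), a secreted protease inhibitor, SLC2A3 (-1.78), a glucose transporter, LAMA4 (-1.77) and the collagen cross-linking oxidase LOX (-1.70) fell as well. PIGR fell by 2.66 ± 0.66, but its vehicle range of 2.25 to 273 CPM rested on vehicle tumor 12, and without that tumor the value was -1.12 (adjusted p = 0.0428). With each tumor's GC slope as a term, described further on, PIGR was not called. The arms overlapped, with 0.370, 1.68 and 15.6 CPM under ARN-509.

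The vehicle tumors were not uniform. Of the 171 genes with at least 2-fold changes, each vehicle tumor held between 9.94% and 63.2% (median 17.5%) at a level inside the range of the treated arm. Vehicle tumor 11 held 108 of them there (63.2%), vehicle tumor 2 held 94 (55.0%), vehicle tumor 10 held 75 (43.9%) and vehicle tumor 14 held 72 (42.1%). Vehicle tumor 1 held only 17 (9.94%). The same genes in treated tumors lay inside the vehicle range in 32.2% (ARN-509 tumor 11) to 71.3% (ARN-509 tumor 13) of cases, with a median of 42.7%. These genes were chosen by the difference between the arms, so the shares are descriptions. Over all 12800 genes the vehicle arm varied more, with a larger SD of log2 CPM for 9608 genes (75.1%) and a median SD of 0.287 against 0.226. HSPA6, a heat-inducible chaperone, varied widely in both arms, at 2.89, 25.6 and 243 CPM in vehicle tumors and 5.27, 17.1 and 102 CPM in treated ones, and did not pass the test (-0.70 ± 0.54).

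Vehicle tumor 11 also had the least STEAP4 (4.44 CPM) and TRPM8 (101 CPM) of its arm. Vehicle tumor 14 had the next lowest level of both, 13.7 and 180 CPM. The highest treated tumor was at 15.9 CPM of STEAP4 and 213 CPM of TRPM8, so both vehicle tumors lay inside the treated range for these genes. These tumors are named after their values were seen.

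**Figure D2:**
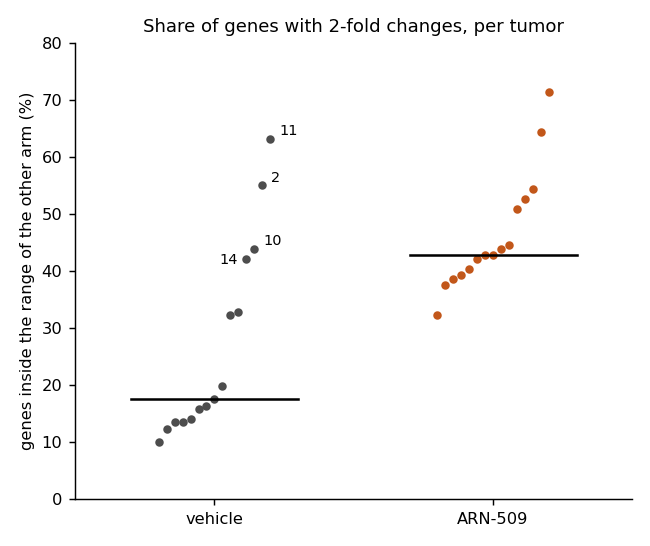
Share of the 171 genes with at least 2-fold changes that each tumor held inside the range of the other arm, 1 point per tumor, with a bar at each median (17.5% for vehicle, 42.7% for ARN-509); numbers mark 4 vehicle tumors. Vehicle tumor 11 stands at 63.2%.

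Of 16 other tested factors of prostate identity 4 rose and 4 fell (25.0% each, against 12.7% and 15.1% of all tested genes). GATA2 (0.50), HOXA13 (0.48) and GRHL2 (0.34) were among those that rose. KLF5 (-0.83), SPDEF (-0.59), SOX9 (-0.48) and CREB3L4 (-0.43) fell. The pioneer factor FOXA1 and the homeodomain factor HOXB13 were at medians of 589 and 408 CPM in vehicle tumors and 612 and 436 CPM in treated ones, and neither passed the test (both 0.05). Among 27 nuclear receptors 8 rose (29.6%) and 6 fell (22.2%). NR4A2 rose by 1.10 while its relative NR4A1 fell by 0.52, and NR2F1 (-1.09) and ESRRG (-1.46) fell. Of 13 enzymes of steroid metabolism 3 fell (23.1%), which were HSD17B6, HSD17B10 and HSD17B11, and HSD17B4 rose by 0.18, a call lost without ARN-509 tumor 15.

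Replication genes fell together by small amounts. Of 35 genes of replication licensing and fork assembly 28 fell (80%, against 15.1% of all tested genes). The others did not pass, and the median of the list was -0.38. PRIM1, a primase subunit, went from a vehicle median of 42.7 to 29.9 CPM (-0.42 ± 0.08), POLA2 from 97.5 to 77.4 CPM (-0.38 ± 0.07), and CDC45 from 49.5 to 35.0 CPM (-0.58 ± 0.11). Of 39 mitotic genes 8 fell (20.5%, against 15.1% of all tested genes) and none rose, with CDC20 (-0.59) and CCNB2 (-0.48) among those that fell. Repair genes gave 13 falls (28.9%) and 4 rises (8.89%) of 45, against 15.1% and 12.7% of all tested genes. FANCD2 (-0.35) and XRCC3 (-0.38) were down and LIG4 (0.67) and NBN (0.37) up. The repair list gave 10 falls and 7 rises with library totals as the only scaling, where all tested genes gave 1282 and 2348. Mitotic falls numbered 4 without vehicle tumor 8 and 3 with library totals as the only scaling, where licensing gave 26 each time. All tested genes gave 1560 falls of 13171 and 1282 of 13170, so the mitotic share was no higher than theirs in either fit. Without vehicle tumors 8 and 10 the mitotic falls numbered 7, where licensing gave 29 and all tested genes 1988 of 13135. Whether the licensing and mitotic lists differ from each other was not tested.

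Biosynthetic and secretory genes also fell, to be read beside the 15.1% of all tested genes that fell and the 12.7% that rose. In cholesterol synthesis 16 of 26 fell (61.5%) and 1 rose (3.85%). HSD17B7, a sterol and steroid reductase, had vehicle levels of 8.51, 11.8 and 21.1 CPM and treated levels of 6.35, 9.04 and 10.4 CPM (-0.46 ± 0.11). TM7SF2, a sterol reductase of the same pathway, rose by 0.42 ± 0.10. Chaperones and folding factors of the endoplasmic reticulum gave 21 falls (47.7%) and 1 rise (2.27%) of 44, with CALR at -0.54 and P4HB at -0.40. The citric acid cycle gave 11 falls of 21 (52.4%), with PC at -0.38, FH at -0.38 and MDH2 at -0.33. Polyamine genes went both ways, with ODC1 (-0.57), which makes putrescine, and SRM (-0.45) down and SAT1 (0.46) and AMD1 (0.46) up. SLC1A5, a glutamine transporter, was at 254, 307 and 401 CPM in vehicle tumors and 163, 201 and 256 CPM in treated ones (-0.60 ± 0.07), so 1 vehicle tumor lay inside the treated range.

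Large housekeeping complexes gave many small falls, to be read beside the 15.1% of all tested genes that fell and the 12.7% that rose. Respiratory complex I had 22 falls of 43 (51.2%), complexes II to V 26 of 44 (59.1%) and the proteasome 16 of 45 (35.6%). The cytosolic ribosome had 39 falls (48.75%) and 1 rise (1.25%) of 80, and the mitochondrial ribosome 26 falls (34.7%) and 1 rise (1.33%) of 75. The largest fall in any of them was 0.56 on the log2 scale, and NDUFB10 (-0.48), PSMB6 (-0.42) and RPL36 (-0.44) were typical of the leading members. Ribosomal genes have many processed pseudogenes, and their counts are uncertain. Zinc finger genes named ZNF moved the other way, with 106 of 474 up (22.4%) and 14 down (2.95%). ZNF25 was at 0.56 and ZNF503 at 0.62. Without vehicle tumor 8 the falls were 17 for complexes II to V and 25 for the cytosolic ribosome, of 1560 over all tested genes. Without vehicle tumors 8 and 10 they were 27 and 45, of 1988. With library totals alone they were 17 and 26, with 8 for the proteasome, of 1282. In the same scaling 159 ZNF genes rose and 8 fell, where 2348 of all tested genes rose.

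In the signaling lists members moved both ways, to be read beside the 12.7% of all tested genes that rose and the 15.1% that fell. In the Wnt list of 30, where 16.7% rose and 23.3% fell, FZD8, FZD5 (-0.74) and FZD1 (-0.54) were among 7 that fell, and FZD3 (0.62) and LGR4 (0.69) among 5 that rose. In the TGF-beta and BMP list of 36, 10 rose (27.8%) and 6 fell (16.7%). The ligands TGFB2 (1.62) and BMP2 (1.61) and the mediator SMAD3 (0.64) rose, while the BMP antagonist CHRD (-1.79) and the ligand GDF11 (-1.04) fell. SMAD3 was at 16.0, 23.5 and 37.5 CPM in vehicle tumors and 33.4, 38.5 and 50.8 CPM in treated ones. Among 46 axon guidance genes 11 rose (23.9%) and 7 fell (15.2%), with EFNB3 (0.72) up and PLXNA2 (-0.94) and EPHB3 (-0.66) down. Of 19 growth factor receptors 5 fell (26.3%), FGFR1 (-0.59), FGFR3 (-1.11) and PDGFRA (-1.91) among them, and 3 rose, ERBB2 (0.32) among them. NOTCH1 fell by 0.69.

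Further lists gave smaller sets, to be read beside the 12.7% of all tested genes that rose and the 15.1% that fell. MHC class II genes fell in 4 of 11 cases (36.4%) of the antigen presentation list, which were HLA-DMB, HLA-DPA1 (-1.0), HLA-DMA (-0.81) and HLA-DPB1 (-0.62). Interferon-response genes fell in 4 of 19 cases (21.1%, against 15.1% of all tested genes), but OAS3 moved from -0.45 to -0.25 (adjusted p = 0.0455) and ISG15 from -0.72 to -0.39 (adjusted p = 0.130) without vehicle tumor 12. Clock genes rose in 5 of 17 cases (29.4%), led by BHLHE41 (0.85) and NPAS2 (0.77). Of 15 genes that glucocorticoid induces, KLF9 and TSC22D3 rose (13.3%, against 12.7% of all tested genes) and 3 fell (20.0%, against 15.1%), FKBP5 among them. Of 18 neural and neuroendocrine genes 4 rose (22.2%), NCAM1 (0.77) and the neurofilaments NEFL (0.38) and NEFM (0.31) among them, and NRCAM fell by 1.18. ERG-associated genes fell in 7 of 14 cases (50%) and rose in 1 (7.14%), NCALD (0.77).

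Markers of other cells differed widely in level. The host cells of these xenografts are from the mouse, while counts are on human genes and the handling of mouse reads is not given. The counts therefore do not measure how many host cells a tumor held. Several defining markers of leukocytes, endothelium, stroma and red cells were at or near 0 over the 30 libraries, with 3 counts in all for PTPRC, 0 for CD3E, 4 for CDH5, 11 for DCN, 8 for POSTN and 3 for HBB. Others were counted in every library, with 28.8 to 63.4 CPM for ENG and medians of 19.3 CPM for EGFL7, 12.1 CPM for ACTA2, 5.01 CPM for CD68 and 3.96 CPM for COL1A1. The summed level of the 14 fibroblast markers was 22.3 to 48.1 CPM (median 35.1) in vehicle tumors and 15.8 to 36.8 CPM (median 23.9) in treated ones. Only 4 of these markers were tested, of which 2 fell (50%, against 15.1% of all tested genes), PDGFRA and FBN1 (-0.73). The other tested markers, COL1A1 and ACTA2, did not pass. Of the endothelial list ENG fell by 0.35 and EGFL7 (0.15) did not pass, and of the leukocyte list CD68 (-0.02) did not pass. The part of these cells in the falls of LAMA4, LOX and PDGFRA was not tested. Of the luminal markers, KLK2, FOXA1 and HOXB13 were high in every tumor, but AMACR had 278 counts in all 30 libraries, and FOLH1 a median of 8.65 CPM. Basal markers were nearly absent, with 41 counts of KRT5 and 56 of TP63, apart from KRT14, which fell by 3.12 from a vehicle median of 5.92 to 0.508 CPM.

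Library totals were 4.19 to 25.8 M counts (median 5.71) in the vehicle arm and 3.38 to 30.1 M (median 7.49) in the ARN-509 arm. The first 2 principal components held 32.8% and 13.4% of the variance. Vehicle tumor 8 correlated least with the mean of its own arm (0.890), then vehicle tumor 10 (0.916). Leaving both out gave 3937 called genes.

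The changes followed the base composition and length of the transcripts. Each gene was given the GC content and length of its longest protein-coding transcript, which was possible for 12945 tested genes. Across these genes the rank correlation (Spearman) of the log2 change was -0.43 against GC content and 0.34 against length. This is across genes, which are not independent replicates, and GC content and length were themselves related (-0.30). In the quintile of genes with the lowest GC content (24.2% to 41.2%), 657 of 2589 rose and 82 fell. In the highest quintile (58.7% to 74.7%), 93 rose and 626 fell. The quintiles between gave 462 rises and 216 falls, 293 and 374, and 146 and 664. By length, the shortest quintile (64 to 1954 bases) gave 87 rises and 626 falls and the longest (5745 to 109224 bases) 551 and 172. The median transcript of a gene that rose had 42.5% GC and 4595 bases, that of a gene that fell 55.5% and 2626.5 bases, and that of an uncalled gene 48.7% and 3348 bases.

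Taking tumors as replicates, each was given a slope of log2 CPM, relative to the gene's mean over the 30 tumors, on GC content. The slopes per 10 points of GC were -0.110 to 0.382 (median 0.0282) in vehicle tumors and -0.296 to 0.128 (median -0.0725) in treated tumors. The arms overlapped widely, and vehicle tumors 8 (0.382) and 7 (0.312) were the highest and ARN-509 tumor 12 (-0.296) the lowest. Mean slopes were 0.0587 (SD 0.144, n = 15) and -0.0587 (SD 0.111, n = 15), a difference of -0.117 (two-sided permutation p = 0.0179, adjusted 0.0359 over the 2 slopes). The slope on log2 length was higher in treated tumors by 0.0745 per doubling (permutation p = 0.0409, adjusted 0.0409). Both calls rest on single tumors. The GC difference was -0.0944 without vehicle tumor 8 and lost its call without any 1 of vehicle tumors 7, 8, 11 and 12 or ARN-509 tumors 6, 9, 12 and 14 (adjusted permutation p = 0.0510 to 0.0681). The length difference lost its call without any 1 of vehicle tumors 7, 8, 11, 12, 14 and 15 or ARN-509 tumors 1, 6, 9, 10, 12, 14 and 15.

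**Figure D3:**
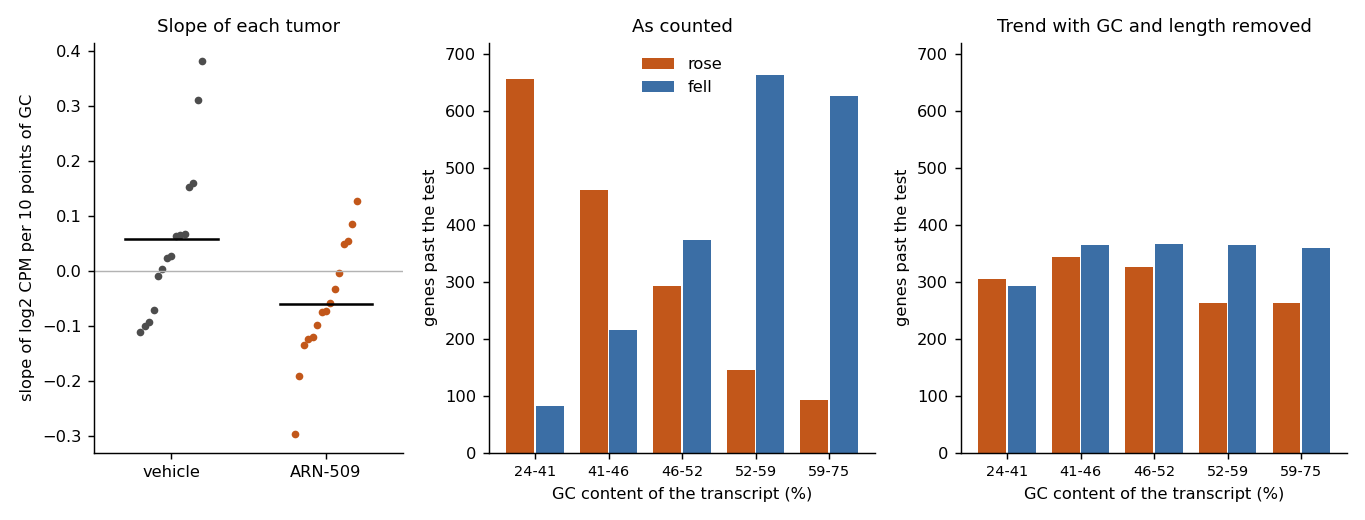
Left, slope of log2 CPM per 10 points of GC content in each tumor, sorted within its arm, with a bar at the arm's mean (0.0587 for vehicle, -0.0587 for ARN-509). Middle and right, number of genes that rose (orange) or fell (blue) in each quintile of GC content, as counted (657 and 82 in the lowest quintile, 93 and 626 in the highest) and with each tumor's trend with GC content and length removed.

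Removing a smooth trend of each library with GC content and length took this pattern out of the calls. By construction of the fit, the correlations became -0.02 with GC content and 0.01 with length. The lowest GC quintile gave 305 rises and 292 falls, and the highest 263 rises and 360 falls. Any change under ARN-509 that runs along GC content or length is removed as well. A similar number of genes was called, 1501 up (11.6%) and 1749 down (13.5%), but not the same ones. Of 3613 called genes with a transcript, 2433 (67.3%) were called in the same direction again, and 817 genes were called only with the trend removed. A second fit kept the counts and added each tumor's GC slope as a term, which called 915 genes up (7.07%) and 856 down (6.61%). The slope differs between the arms, so in that fit slope and treatment cannot be told apart where they run together.

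Which changes passed each way depended on their size. Of genes called with a change under 1.25-fold, 45.9% were called again with the trend removed and 18.6% with the slope as a term. The shares were 79.9% and 43.4% at 1.25 to 1.5-fold, and 94.9% and 82.7% at 1.5 to 2-fold. From 2 to 4-fold they were 100% and 95.9%, and over 4-fold 100% and 95.7%. NOV (3.22 and 3.23) and CAMK2N1 (1.10 and 1.15) were called both ways. FKBP5, which codes for a co-chaperone of steroid hormone signaling, fell by 0.75 and 0.68 against 0.60 as counted. A set of 1303 genes, 645 up and 658 down, was called as counted, in both of these fits and without any 1 of the 30 tumors. Their median GC content was 46.1% for genes that rose and 52.7% for genes that fell.

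**Figure D4:**
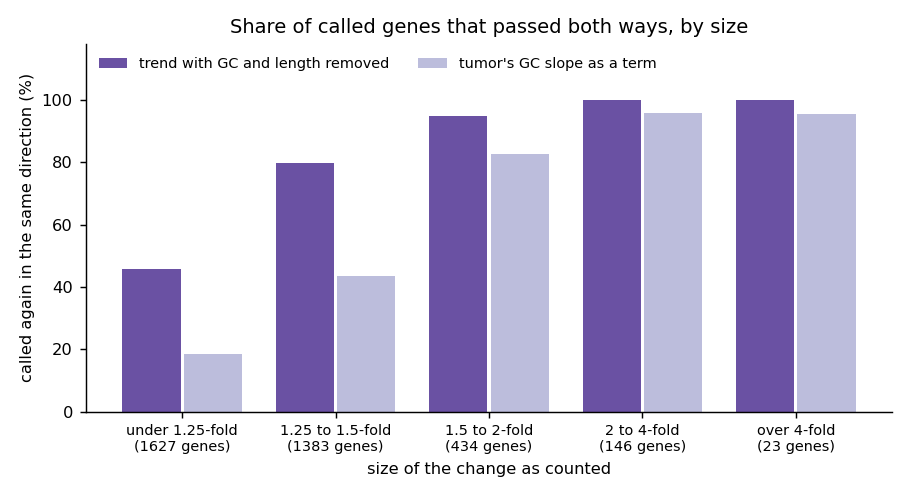
Share of genes called as counted that were called in the same direction with each tumor's trend with GC content and length removed (dark bars) and with its GC slope as a term (light bars), by size of the change. The dark bars go from 45.9% under 1.25-fold to 100% over 2-fold and the light bars from 18.6% to 95.7%.

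Some genes moved against the trend. Removing the trend tends to enlarge such changes, so the second values below are no separate support. All 93 rises of the highest GC quintile and all 82 falls of the lowest were called again with the trend removed. In the highest GC quintile the largest rises were those of SAMD11 (2.39 as counted, 2.49 with the trend removed), LOC100130417, VWA5B1, the imprinted noncoding RNA H19 (1.27 and 1.45), HSPA12B (1.15 and 1.22) and TMEM59L (1.06 and 1.20), with LRFN2, NTNG2, PRSS3 (0.92 and 1.13) and GALNT9 behind them. In the lowest quintile the largest falls were STEAP4 (-3.75 and -3.89), LUZP2 (-3.02 and -3.20), GHR (-1.98 and -2.10), LOX (-1.70 and -1.80), ESRRG (-1.46 and -1.60) and WWTR1 (-1.41 and -1.53), then UGT2B4, GPR126, MGP and PDGFC. PRSS3, a trypsinogen with near-identical relatives, is uncertain in its counts.

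The lists changed by different amounts, to be read beside the shares of all tested genes in each fit. Falls made up 15.1% as counted, 13.5% with the trend removed and 6.61% with the slope as a term. For rises the shares were 12.7%, 11.6% and 7.07%. Androgen-induced genes gave 22 falls with the trend removed and 20 with the slope as a term, of 23 as counted. Replication licensing gave 30 and 18 of 28, the endoplasmic reticulum list 19 and 11 of 21, and the citric acid cycle 11 and 7 of 11. Cholesterol synthesis gave 18 falls with the trend removed and 3 with the slope as a term, where HSD17B7 was at -0.36 and -0.38. Complex I gave 19 and 3, complexes II to V 23 of 43 and 4, the mitochondrial ribosome 23 and 1, the cytosolic ribosome 22 and 1, and the proteasome 16 and 1. Mitotic falls numbered 6 with the trend removed, and no mitotic gene was called with the slope as a term. ZNF genes gave 66 rises and 22 falls of 472 with the trend removed and 29 and 8 with the slope as a term. Repair genes gave 16 falls and 4 rises with the trend removed and 6 and 2 with the slope as a term. Rises among nuclear receptors went from 8 as counted to 5 and then 4, and falls from 6 to 6 and then 5. The lists of lineage factors (5 and 5, then 5 and 4), Wnt (6 and 7, then 6 and 6), TGF-beta and BMP (9 and 7, then 7 and 6) and axon guidance (13 and 7, then 11 and 6) changed by at most 3 genes in either direction.

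**Figure D5:**
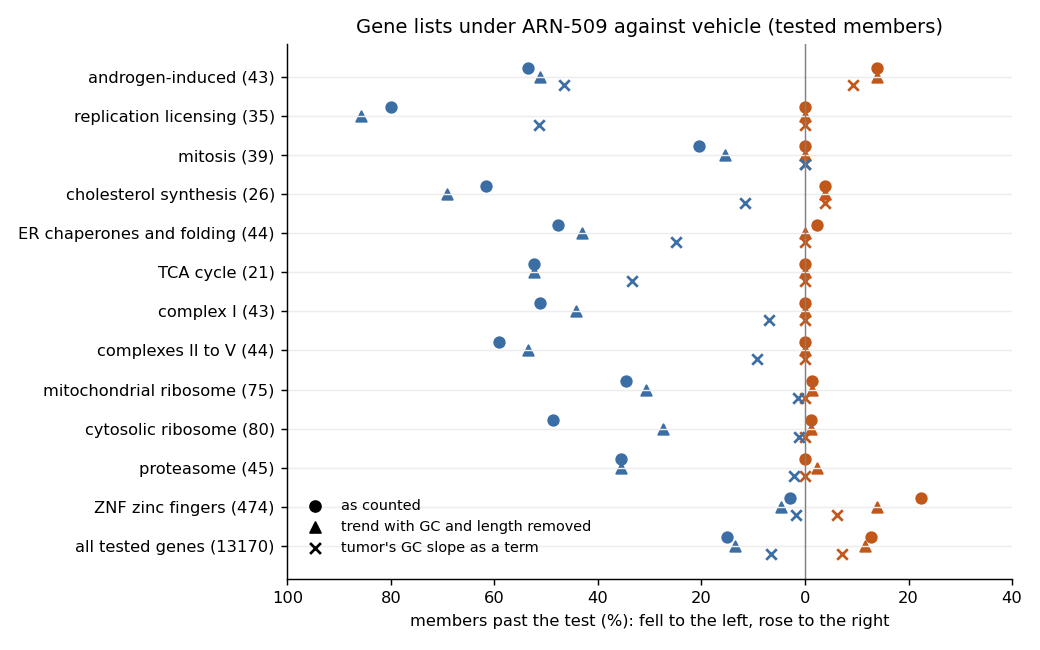
Share of tested members of 12 gene lists and of all tested genes that fell (blue, left) or rose (orange, right) under ARN-509, as counted (circles), with each tumor's trend with GC content and length removed (triangles) and with its GC slope as a term (crosses); the number tested stands in brackets. Androgen-induced genes fell in 23, 22 and 20 cases, and genes of the cytosolic ribosome in 39, 22 and 1.

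ARN-509 was also set beside enzalutamide, with 1 enzalutamide library of 80142 counts left out. The arms differed in 3623 of 13520 genes (26.8%), but in 606 of 13280 (4.56%) with the trend removed. Of the 171 genes with at least 2-fold changes against vehicle, 23 differed between the drugs as counted. With the trend removed as well there remained RASSF8, TGFB2, GDF11, GPR149, GUCA2A and PLEKHH1, named here after their values were seen. RASSF8 was at 8.39, 11.8 and 16.4 CPM under enzalutamide, between its vehicle and ARN-509 levels. Its ARN-509 level was higher than under enzalutamide by 0.76 (adjusted p = 0.00305), and by 0.45 (adjusted p = 0.0360) with the trend removed. EMP2 was at 108, 133 and 156 CPM under enzalutamide, and ARN-509 was lower by 0.22 (adjusted p = 0.00495), or by 0.30 (adjusted p = 0.0121) with the trend removed. SAMD11 (-0.07, adjusted p = 0.838) and NOV (0.33, adjusted p = 0.158) were not called between the drugs. KLK2 was at 4020, 5032 and 6042 CPM under enzalutamide and was lower by 0.25 under ARN-509 (adjusted p = 0.0162), but the trend-removed value of -0.16 did not pass (adjusted p = 0.145). The genes named here were chosen in part by levels in the same ARN-509 tumors, which can enlarge their differences from enzalutamide. Comparisons of each drug with vehicle share the vehicle tumors, and no overlap between those comparisons is given.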

How the data were processed

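RNA of 44 VCaP xenograft tumors was sequenced from TruSeq RNA v2 libraries, which do not mark strand, per the labels' protocols. The authors deposited 1 table of raw read counts per gene symbol. The submitters' processing notes name HTSeq 0.6.1, TopHat2 2.1.0, Picard 1.77, bcl2fastq 1.8.4 and the hg19 build. Annotation, strand setting and any step against mouse reads: not given in the sources used here. Mouse reads could therefore add to similar human genes, and near-identical, overlapping and antisense genes are uncertain. Columns were matched to samples by their labels. No 2 libraries of an arm differed by as little as sampling noise (lowest chi-square per degree of freedom 3.42 for vehicle and 3.92 for ARN-509).

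The 15 ARN-509 and 15 vehicle libraries were fitted with edgeR 4.0.16 (R 4.3.3; TMM scaling, filterByExpr by arm, robust quasi-likelihood test, Benjamini-Hochberg adjustment over all tested genes, threshold 0.05). Levels are CPM on TMM-scaled totals. The levels given for ENG, EGFL7, ACTA2, CD68, COL1A1 and FOLH1 and the summed fibroblast levels are instead on library totals without TMM scaling. Standard errors are the log2 change over the square root of F. Transcript GC content and length came from GENCODE 29 (GRCh38) by symbol for 98.3% of tested genes, while the counts are on hg19. Each library's trend was removed with natural splines (4 degrees of freedom) as an offset. Slopes used a prior count of 2 and a two-sided permutation test of 100000 resamples (Python 3.11.15, scipy 1.17.1, numpy 2.4.6). Plots were drawn with matplotlib 3.10.9. The fits were also run on simulated counts with known changes and either no GC trend or a linear one, without a length trend. Those settings are simpler than these data, and no result here draws on them.

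Named genes were, at an average log2 CPM of 1 or more, the 40 largest rises and falls, the 10 non-overlapping genes with the widest gap each way and the 5 of largest SD per arm. To these were added the 10 that moved most against the GC trend each way, the 20 smallest p, the androgen, steroid enzyme and lineage lists in full and up to 5 leading members of each of the 63 lists. The comparison and the lists were chosen with earlier results of these data known. Alternatives covered scaling (DESeq2 1.42.0 size factors, library totals), filters, limma 3.58.1 and DESeq2, the libraries in the fit, the replicate number, sequence trends and depth. Some genes are not reported here.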

Additional observations from a re-analysis of the deposited data

How the results depend on the processing

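In the alternatives to the count of 3657 genes other than leaving out tumors, DESeq2 size factors, a stricter filter, no robust estimation, DESeq2, limma voom, the fits of 44 and 43 libraries and the fits without vehicle tumors 8 and 10 called 3387 to 4848 genes. Library totals alone gave 2348 rises and 1282 falls. No filter on low counts gave 226 rises and 210 falls of at least 2-fold. With each library's GC slope as a term 1771 genes were called, 915 up and 856 down, and with all libraries thinned to the smallest total 2178, 1016 up and 1162 down. Other forms of trend removal called 3021 to 3312. Leaving out 1 tumor at a time gave 2862 (without vehicle tumor 7) to 4629 (without vehicle tumor 10) called genes, 1324 to 2207 rises and 1538 to 2422 falls, of which 71 to 105 and 85 to 103 were at least 2-fold. The GC slope difference ranged from -0.131 to -0.0944 and the length slope difference from 0.0546 to 0.0896, and with GC content and length fitted together the length difference was 0.0519 (adjusted permutation p = 0.0818). The replicate numbers do not pair the tumors (correlation of deviations for the same number -0.34 to 0.61, median 0.07, against -0.01 for other numbers, with 1 of 15 vehicle tumors correlating best with its own number). With the number as a replicate block 3521 genes were called, 1745 up and 1776 down, and 3406 with the trend removed as well. For 413 named genes the alternatives gave 20189 results. Of these, 187 were weaker than as counted with 1 tumor left out and 408 in the other settings, while 81 and 144 were stronger. Only 1 of the genes changed direction. KRT19 was at -0.06 as counted and 0.25 (adjusted p = 0.0466) with the trend removed and vehicle tumors 8 and 10 left out. That alternative was chosen after seeing the data, as was the use of median transcript GC content and length. The cause of the KRT19 change was not tested. At the depth of the shallowest tumor, differences in genes of about 1 CPM rest on few counts.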
